A study of Mus musculus with 35 samples.

Results

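Hox genes encode homeodomain transcription factors that give cells along the head-to-tail axis their regional identity. They were chosen by symbol alone, as every entry named Hoxa, Hoxb, Hoxc or Hoxd followed by a number, which gave 39 of the 54446 genes in the deposited expression table. The study grew three-dimensional (3D) epiblast-like cultures from mouse embryos and from embryonic stem cells and set their RNA beside that of the embryo. Its 27 bulk RNA-seq libraries fall into 9 groups of 3.

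The labels give the 5 embryo groups as wild-type CD-1 without treatment and of both sexes, while the methods name CD1 and reporter-line matings and no sexing of these embryos. The embryo groups were inner cell mass (ICM) at E3.5, epiblast at E4.5, and epiblast at E5.5, E6.5 and E7.5, where E counts embryonic days. The E3.5 ICM was cut out by laser from blastocysts. The E4.5 epiblast was picked by hand as the GFP-negative cells of a reporter line for primitive endoderm (Pdgfra:H2B-GFP) after the trophectoderm had been removed. From E5.5 on, the visceral endoderm and extraembryonic ectoderm were removed by hand, and at E7.5 the allantois as well. At every stage several embryos were pooled in each library, more of them up to E4.5 than later. The 4 culture groups were 3D EpiSCs derived from embryonic stem cells and 3D EpiSCs derived from embryos, both in Matrigel with FGF2, Activin A, the Wnt inhibitor XAV939 and the Bmp inhibitor Noggin, together with 2D EpiSCs, which are stem cells converted on a flat surface in FGF2 and Activin A, and EpiLCs, stem cells held for 48 h in the same 2 factors. Nothing in the labels says that the libraries of a culture group came from separate derivations, so their spread may be technical.

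Mammalian Hox genes sit in 4 clusters, and genes at the same position in different clusters are close relatives. Position 1 lies at the 3′ end, is switched on first during gastrulation and is used nearest the head, while position 13 lies at the 5′ end, comes on last and is used in the tail, the limb tips and the genital tubercle. Before gastrulation the clusters are packed by Polycomb proteins. Caudal (Cdx) factors, Wnt signals and retinoic acid open them from the 3′ end, and Hox proteins bind DNA together with Pbx and Meis partners.

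In the deposited table (mm10 coordinates), HoxA held 11 genes on chromosome 6, HoxB 10 genes at chr11:96194316-96368256, HoxC 9 genes at chr15:102921103-103036852 and HoxD 9 genes at chr2:74668310-74765142. Hoxd4 had 2 entries (ENSMUSG00000101174.7 and ENSMUSG00000115956.1), which makes 40 entries in all. These overlap each other and Hoxd3, so the split of reads among them is uncertain. Levels are given as TPM, the usual length-corrected share of a library's transcripts, and the read depth behind them is unknown.

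The sequence just upstream of 4 start sites is shown for genes at different positions. Hoxb1 and Hoxa2 are position 1 and 2 genes, with means of 47.5 and 4.00 TPM at E7.5. Hoxb8 is a central gene with a mean of 4.46 TPM there. Hoxd13 is the last gene of its cluster and the highest Hox gene of the cultures. Each run holds the 250 bases before the RefSeq start site on the gene's own strand (GRCm38.p6), at chr11:96365508-96365757 (+), chr6:52164832-52165081 (-), chr11:96281655-96281904 (+) and chr2:74667975-74668224 (+) in that order. Capitals mark letters that match, on either strand, a Pbx-Hox motif (TGATNNAT), a Meis motif (TGACAG), a Cdx motif (TTTATG), a retinoic acid receptor half-site (AGGTCA) or a TATA box (TATAAA).
Hoxb1: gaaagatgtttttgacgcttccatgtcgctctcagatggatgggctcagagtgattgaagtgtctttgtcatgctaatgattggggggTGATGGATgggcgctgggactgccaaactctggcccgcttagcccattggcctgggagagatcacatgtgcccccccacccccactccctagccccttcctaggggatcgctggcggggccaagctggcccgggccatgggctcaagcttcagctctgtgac
Hoxa2: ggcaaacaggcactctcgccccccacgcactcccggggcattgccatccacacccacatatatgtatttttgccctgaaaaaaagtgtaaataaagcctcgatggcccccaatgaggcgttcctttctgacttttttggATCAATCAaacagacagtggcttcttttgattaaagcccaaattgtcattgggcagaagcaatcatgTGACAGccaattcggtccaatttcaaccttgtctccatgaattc
Hoxb8: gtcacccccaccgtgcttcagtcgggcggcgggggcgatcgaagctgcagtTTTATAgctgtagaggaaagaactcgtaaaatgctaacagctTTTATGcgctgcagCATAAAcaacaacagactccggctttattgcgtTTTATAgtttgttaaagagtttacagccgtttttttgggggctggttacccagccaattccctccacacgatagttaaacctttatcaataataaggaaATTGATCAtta
Hoxd13: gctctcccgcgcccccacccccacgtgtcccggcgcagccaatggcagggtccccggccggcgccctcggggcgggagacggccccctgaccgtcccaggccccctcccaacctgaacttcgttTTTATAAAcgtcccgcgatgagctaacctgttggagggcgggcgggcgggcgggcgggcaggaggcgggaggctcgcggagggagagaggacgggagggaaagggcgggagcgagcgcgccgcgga

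Hoxb1 carried 1 Pbx-Hox match, Hoxa2 a Pbx-Hox and a Meis match, Hoxb8 a Pbx-Hox match with 2 Cdx and 2 TATA matches, and Hoxd13 a pair of TATA matches that overlap each other. The Pbx-Hox letters were found in 7.68% of 32851 promoter windows of this length, the Meis letters in 15.9%, the Cdx letters in 10.8%, the half-site in 14.0% and the TATA letters in 12.4%. Over the 24 windows that the RefSeq table holds for 22 of the 39 Hox genes, 4 had a Pbx-Hox match, 2 a Meis match, 5 a Cdx match, 6 a half-site and 4 a TATA match. The Hoxd13 run held 31 CpG dinucleotides and the Hoxb1 run 7, against a median of 12.5 over the Hox windows and 6 over all windows. A match of letters is a description of the window and not a bound site.

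Hox RNA was almost absent from the epiblast at E5.5 and E6.5 and high at E7.5. Summed over all 40 entries, it came to 1.53 ± 0.51 TPM at E5.5 (SD, n = 3), 2.72 ± 0.39 at E6.5 and 193 ± 7.4 at E7.5. At E7.5, HoxB carried 50.9% ± 1.6 of the sum and HoxA 41.2% ± 2.3, while HoxD carried 6.53% ± 0.99 and HoxC 1.34% ± 0.14.

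**Figure D1:**
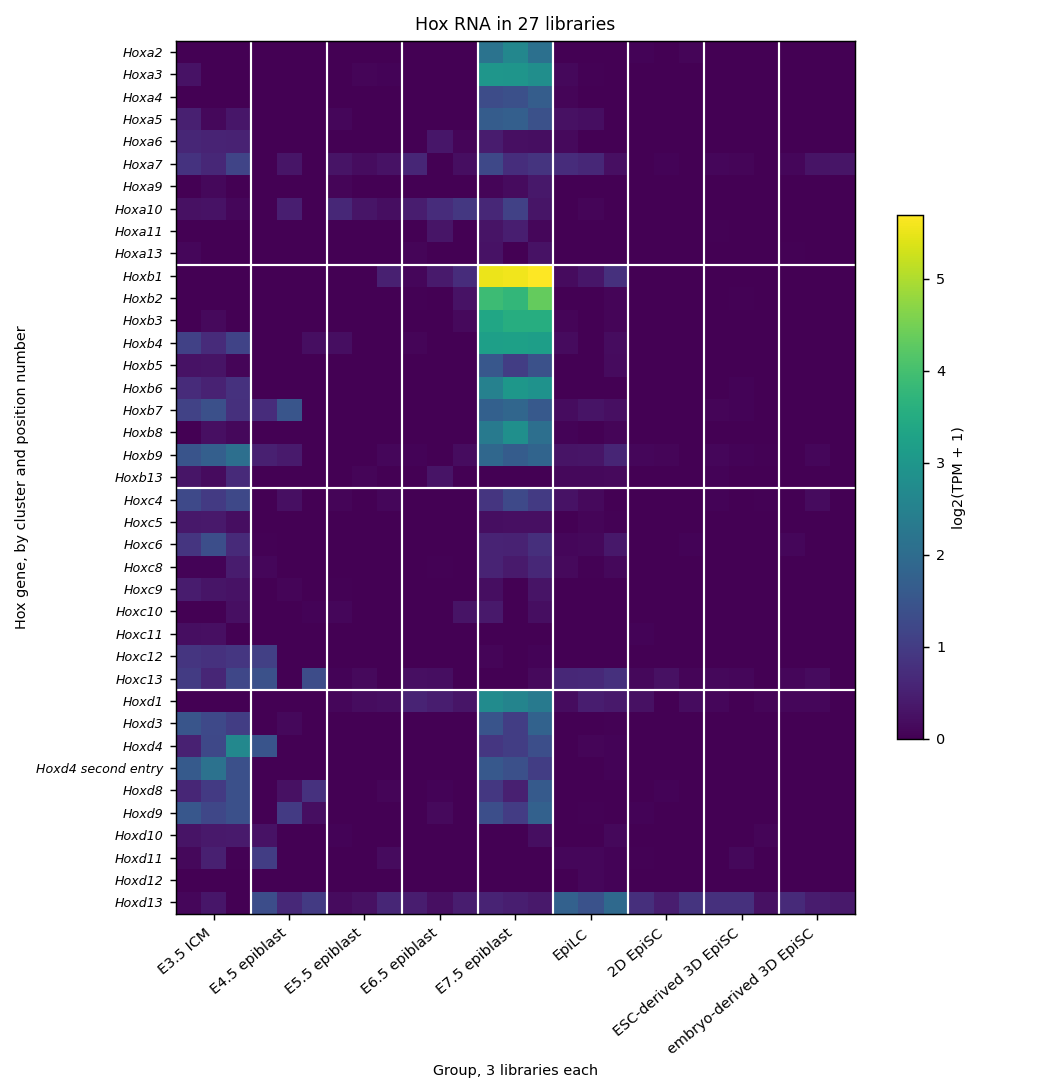
Each row is 1 of 39 Hox entries, ordered by cluster (HoxA at the top) and position number, and each column is 1 of 27 libraries, with white lines between groups and clusters. Colour gives log2(TPM + 1), and the bright block is E7.5, where Hoxb1 reached 50.7 TPM. A fainter scatter of signal stands in E3.5 ICM and a single faint row, Hoxd13, in EpiLCs.

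In HoxA, Hoxa2, which patterns the second branchial arch, measured 3.48, 5.20 and 3.31 TPM at E7.5 and was listed at 0 in every earlier embryo library. Hoxa3, which acts in the thymus and the third arch, measured 6.93, 6.79 and 6.03 TPM, was listed at 0 in the 3 E6.5 libraries and did not pass 0.203 TPM in any earlier one. Both were called higher (limma adjusted p of 2.0e-09 and 1.3e-11), and no fold is given against a group at 0. The E7.5 libraries lay far above all others for both genes. Levels farther along HoxA were lower. Hoxa4 read 1.51, 1.60 and 2.19 TPM at E7.5 and Hoxa5, a lung and neck vertebra gene, 2.15, 2.32 and 1.67, while each had at most 0.417 TPM in any earlier embryo library. Hoxa7 averaged 0.936 ± 0.35 TPM and Hoxa10 0.655 ± 0.46, and Hoxa6, Hoxa9, Hoxa11 and Hoxa13 lay between 0.144 and 0.237 on average.

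In HoxB, the signal ran through 9 neighbouring genes. Hoxb1, a hindbrain gene that is also on in the primitive streak, stood at 45.3, 46.4 and 50.7 TPM at E7.5. At E6.5 it was at 0.0761, 0.328 and 0.656 TPM, and it was 0 in the ICM and E4.5 libraries. The difference was 5.18 ± 0.15 (SE) on the log2(TPM + 1) scale (limma adjusted p = 1.3e-11). Hoxb2, its neighbour and also a hindbrain gene, measured 13.9, 12.7 and 19.3 TPM and had no more than 0.204 before (difference 3.91 ± 0.12, limma adjusted p = 2.5e-11). Hoxb3 measured 9.30, 10.6 and 10.8 TPM (difference 3.44 ± 0.08, limma adjusted p = 1.6e-12).

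Hoxb4, used in the posterior hindbrain and in blood progenitors, was the most even of the 40 entries with a mean above 1 TPM, at 8.24, 8.43 and 8.13 TPM. It lay 3.18 ± 0.12 above E6.5 on the log2 scale (limma adjusted p = 1.3e-10). Further along, Hoxb5 was lower than both its neighbours, at 1.93, 1.04 and 1.66 TPM. Hoxb6, a gene of the trunk mesoderm, rose again to 4.62, 7.01 and 6.44 TPM. Hoxb7 measured 2.34, 2.697 and 2.02 TPM and Hoxb8, also a trunk gene, 3.98, 6.19 and 3.20 TPM. All 3 of these were listed at 0 in each E6.5 library and were called higher (limma adjusted p of 4.0e-10, 1.4e-04 and 1.9e-08 in that order). The order along HoxB was therefore not a smooth fall, since the libraries of Hoxb5 did not overlap those of Hoxb4 or Hoxb6.

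Hoxb9, the last gene of the contiguous run and a rib-patterning gene, measured 2.76, 2.16 and 2.55 TPM at E7.5 against 0.0458, 0 and 0.135 at E6.5. It lay 1.72 ± 0.15 higher on the log2 scale (limma adjusted p = 1.0e-06). Hoxb13, which lies at the far 5′ end and belongs to the tail and prostate, was listed at 0 in each E7.5 library.

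In HoxD, Hoxd1 stood at 5.71, 4.93 and 3.98 TPM at E7.5 against 0.475, 0.367 and 0.241 at E6.5, a difference of 2.10 ± 0.10 on the log2 scale (limma adjusted p = 2.3e-09). It was also the one entry of 40 whose E6.5 libraries all lay above its E5.5 libraries, as in 1437 of 20774 autosomal protein-coding genes. The E5.5 libraries of Hoxd1 read 0.0784, 0.137 and 0.162 TPM, but the step to E6.5 did not pass the test (difference 0.27 ± 0.10, limma adjusted p = 0.11). Hoxd3, Hoxd4, Hoxd8 and Hoxd9 had mean levels between 1.12 and 1.77 TPM at E7.5 and were spread widely among libraries. Hoxd9, for example, read 1.58, 1.01 and 2.39 TPM. Hoxd10 was found in 1 of 3 libraries, Hoxd11 was at or next to 0, and Hoxd12 was listed at 0. Hoxd13 read 0.473, 0.396 and 0.319 TPM.

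HoxC was the quiet cluster. It has no gene at positions 1 to 3, and its first member, Hoxc4, measured 0.831, 1.38 and 0.962 TPM at E7.5. Hoxc5, Hoxc9, Hoxc10, Hoxc12 and Hoxc13 averaged from 0.0289 to 0.168 TPM. Hoxc6 averaged 0.555 ± 0.14 TPM and Hoxc8 0.457 ± 0.12. Hoxc11 was listed at 0.

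Levels fell with position number in all 4 clusters. Across the genes of a cluster, Spearman's rho between position and mean E7.5 TPM was -0.88 in HoxA (11 genes), -0.84 in HoxB (10), -0.87 in HoxC (9) and -0.85 in HoxD (9, with the first Hoxd4 entry). These are descriptions across genes that share the same 3 libraries, and genes of a cluster are not independent replicates. In the order of E7.5 levels, Hoxb1, Hoxb2, Hoxb3 and Hoxb4 each stood clear of the next gene. From Hoxa3 down to Hoxa2, neighbours in that order overlapped, and from Hoxb9 down every neighbour overlapped.

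**Figure D2:**
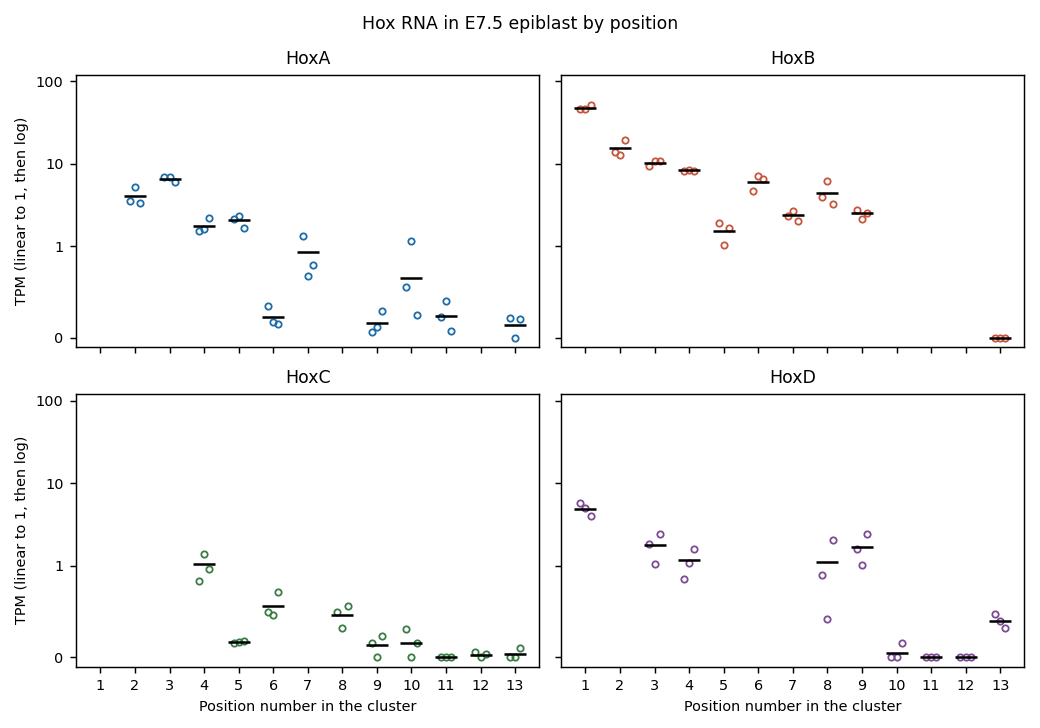
Each panel plots a cluster's genes in E7.5 epiblast by position number, with circles for the 3 libraries and a bar for their mean. The vertical axis gives TPM, linear to 1 and logarithmic above. All HoxA genes but 1 are drawn. Position 1 is highest in HoxB and HoxD, HoxB stays above 1 TPM up to position 9, and HoxC has a single gene near 1 TPM.

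Across all tests, the 12 Hox genes that passed the filter on low values (above 2 TPM in 3 or more of the 15 embryo libraries) were all called higher at E7.5, where 10.6% of 11880 tested genes were called higher and 1.94% lower. All 12 passed only through the E7.5 libraries, since none was above 2 TPM in 3 of the other embryo libraries, so the count says nothing beyond the levels. A test with no filter on low values took in 38 entries and called 18 higher and 0 lower, against 8.18% of all genes called higher. By position it called 11 of 12 genes at positions 1 to 4, 5 of 11 at positions 5 to 8 and 2 of 15 at positions 9 to 13, the last 2 being Hoxb9 and Hoxd9. In 26 of the 40 entries (65%) every E7.5 library lay above every E6.5 library, as it did in 36.6% of 20774 autosomal protein-coding genes. The median of all tested genes moved by 0.31 on the log2 scale in this comparison, which is small beside the Hox differences given above. Those differences depend on the pseudocount, and with 0.1 in place of 1 they ran from 3.45 for Hoxd1 to 6.95 for Hoxb1 among the genes named above.

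The dissected tissue changed in makeup between these stages. The 7 epiblast markers summed to between 2611 and 3030 TPM at E6.5 and between 819 and 863 at E7.5, and 6 of them were called lower. A list of 6 allantois and extraembryonic mesoderm markers summed to between 19.5 and 23.8 TPM at E6.5 and between 179 and 188 at E7.5, and 5 of 5 tested were called higher, with Hand1 at 82.0 TPM. None of the 6 was at 0 in the E7.5 libraries. A list of 7 visceral endoderm markers summed to between 1181 and 1223 TPM at E6.5 and between 1164 and 1212 at E7.5, although that layer was to be removed. A list of 6 primitive streak and nascent mesoderm markers summed to between 314 and 381 TPM at E6.5 and between 147 and 156 at E7.5. Of these, 4 were called lower (Eomes, Mixl1, Lhx1 and Mesp1, by -4.99, -3.10, -2.48 and -1.92 on the log2 scale) and 2 higher (T and Tbx6). Of 4 fibroblast markers tested, 3 were called higher (Col1a1, Pdgfrb and Col1a2), and that list of 8 summed to between 5.69 and 8.03 TPM at E6.5 and between 30.3 and 34.1 at E7.5. Extraembryonic ectoderm markers summed to between 212 and 277 TPM at E6.5 and between 142 and 157 at E7.5, and 3 of 5 tested were called lower. The part of these tissues in the Hox levels was not tested. In such bulk samples, more cells of a type and more RNA per cell cannot be told apart.

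Several signals and trunk genes upstream of the Hox clusters moved between the same stages. Of 13 tested, 7 were called higher and 3 lower, where 10.6% and 1.94% of all tested genes were. Aldh1a2, the enzyme that makes retinoic acid in the embryo, went from 0.333, 0 and 0 TPM at E6.5 to 157, 158 and 160 at E7.5 (difference 7.18 ± 0.14, limma adjusted p = 4.6e-13). Rarb, a retinoic acid receptor gene that retinoic acid itself induces, reached 11.8, 12.7 and 9.33 TPM (difference 3.20 ± 0.20, limma adjusted p = 2.4e-08). Nkx1-2, a marker of the caudal epiblast, went from 0.701 to 83.7 TPM on average, and T (brachyury), a gene of the streak and trunk progenitors, stood at 98.4, 97.9 and 93.1 TPM at E7.5 against 31.0, 28.1 and 30.3. Wnt3a, Tbx6 and Gdf11 were also called higher. Fgf8, Wnt3 and Cyp26a1, the enzyme that degrades retinoic acid, were called lower, the last from a mean of 122 TPM to 60.3.

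Of 6 caudal and ParaHox genes, 2 passed the filter and both were called higher at E7.5. Cdx1 stood at 119, 130 and 121 TPM at E7.5 against 0.376, 0 and 0 at E6.5 (difference 6.80 ± 0.14, limma adjusted p = 7.7e-13). Cdx2 stood at 59.0, 54.3 and 56.9 TPM against 6.18, 6.11 and 3.52 (difference 3.23 ± 0.17, limma adjusted p = 4.0e-09). Cdx4, on the X chromosome and so outside the autosomal fit, read 9.26, 10.1 and 7.90 TPM at E7.5 and was listed at 0 in the 3 E6.5 libraries. Pdx1 averaged 0.694 TPM, Gsx1 0.170 and Gsx2 0.0409.

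Among 9 genes of the Hox partner families, 5 were called higher at E7.5 and 0 lower, where 10.6% and 1.94% of all tested genes were. Meis2 went from a mean of 3.11 to 88.7 TPM (difference 4.46 ± 0.23, limma adjusted p = 4.0e-09), Pknox2 from 0.810 to 33.3 and Meis1 from 1.31 to 25.2. Meis3 and Pbx4 were the other two called. Of 12 tested chromatin regulators that open or close Hox clusters (Trithorax and Polycomb genes among them), 0 passed the fold threshold. In limma 8 had an adjusted p below 0.05, of which 7 were higher and 1 (Cbx7) lower, where 46.5% of all tested genes were higher and 6.87% lower by that p alone. Ezh2, the Polycomb methyltransferase, averaged 126 TPM at E6.5 and 201 at E7.5.

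**Figure D3:**
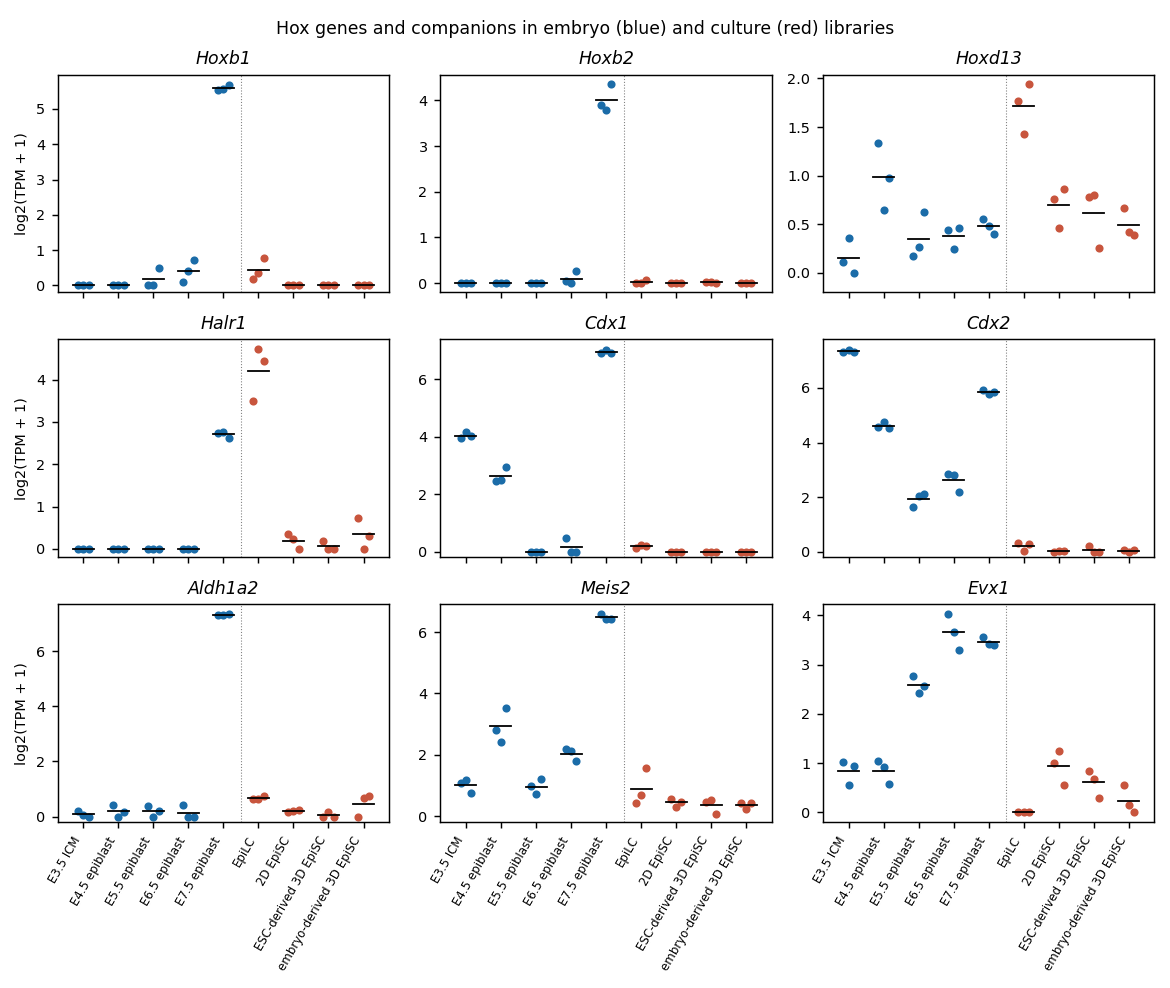
Each panel gives log2(TPM + 1) of a gene in every library, with embryo groups in blue, culture groups in red and a bar at the mean of 3 libraries. Hoxb1, Hoxb2, Cdx1, Aldh1a2 and Meis2 are highest at E7.5, Cdx2 is highest in E3.5 ICM, and Halr1 and Hoxd13 are highest in EpiLCs. Evx1 is already up at E5.5.

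Non-coding genes inside the clusters were read from a fit with all gene classes, since the main fit holds protein-coding genes alone. Of 43 such genes, 10 passed the filter, and 8 were called higher at E7.5 (12.9% of all 15847 genes in that fit). A gene could pass the filter through its E7.5 libraries alone. Of the 43, 1 was above 1 TPM in all E6.5 libraries and 9 in all E7.5 libraries, so the count says little beyond the levels. Hotairm1, a long non-coding transcript of HoxA, read 41.2, 45.3 and 46.5 TPM at E7.5 against 0, 0.409 and 0 at E6.5 (difference 5.33 ± 0.38, limma adjusted p = 2.9e-07). Hoxb3os, antisense to Hoxb2 and Hoxb3, read 13.9, 12.1 and 11.3 TPM (difference 3.70 ± 0.08, limma adjusted p = 1.2e-11). Hoxaas2 and Hoxaas3 averaged 4.23 and 3.78 TPM, and Haglr, in HoxD, 3.24. Hotair was listed at 0 in every library of every group.

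These antisense genes bear on the Hox values themselves. In the GENCODE vM21 annotation, 52.9% of the exonic bases of Hoxb3, 27.3% of those of Hoxb2 and 25.4% of those of Hoxa3 lie opposite an exon of another gene. No strand setting of the quantification step is given, so reads from the 2 strands may not have been kept apart there. Hoxb1, Hoxb4, Hoxb6, Hoxb7, Hoxb8, Hoxb9 and Hoxd1 share no exonic base with another gene. Hoxa2 shares 15.04% of its exonic bases with a gene on its own strand. Hoxd3 shares 62.8% of its exonic bases with other entries and its level is uncertain.

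**Figure D4:**
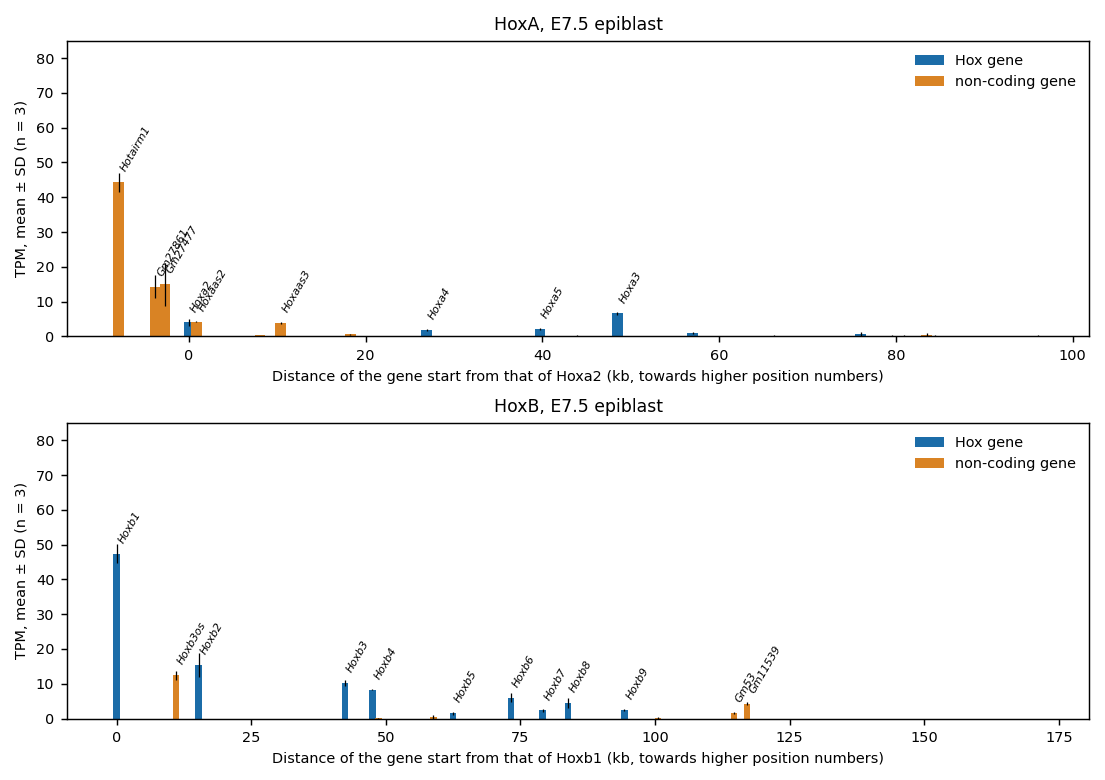
Bars give mean E7.5 TPM (± SD, n = 3) of the Hox genes (blue, in HoxA all but 1) and non-coding genes (orange) of HoxA and HoxB at the distance of their annotated start from that of Hoxa2 or Hoxb1, in kb. Genes above 1.5 TPM are named. Hoxa3 is drawn at the start of its longest transcript, which lies between Hoxa6 and Hoxa7.

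Genes outside the clusters did not follow them as a group. Of 17 tested protein-coding genes within 300 kb, 1 was called higher at E7.5 and 0 lower, with a median difference of 0.31 where the median of all genes was 0.31. The one was Skap2, an adaptor protein gene on the 3′ side of HoxA (difference 1.96 ± 0.18, limma adjusted p = 1.5e-06). Evx1, a homeobox gene of the primitive streak that lies 52.6 kb beyond Hoxa13, was up much earlier, at a mean of 0.810 TPM at E4.5, 5.02 at E5.5, 11.9 at E6.5 and 9.98 at E7.5. The steps to E5.5 and to E6.5 were called higher and the last was not (difference -0.20 ± 0.18, limma adjusted p = 0.36). Evx2, its relative beside Hoxd13, was listed at 0 in every library.

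E3.5 ICM held a low level of Hox RNA with another order. The 40 entries summed to between 20.3 and 26.2 TPM in E3.5 ICM, between 5.19 and 9.34 at E4.5 and between 0.976 and 1.97 at E5.5. Between 27 and 30 entries were above 0 in each ICM library. The highest were Hoxb9, with 1.78, 2.28 and 3.24 TPM, and the entries for Hoxd4, where the first read 0.434, 1.35 and 5.27 TPM and the second 2.07, 3.46 and 1.63. Hoxd9 read 1.93, 1.30 and 1.60 TPM, Hoxd3 1.84, 1.38 and 1.04, Hoxc4 1.38, 0.941 and 1.36, and Hoxc6 0.827, 1.58 and 0.601. Of the genes called higher at E7.5, Hoxb1, Hoxd1 and Hoxa2 were listed at 0 in all 3 ICM libraries. Hoxb2 and Hoxb3 did not pass 0.112 TPM. Others called at E7.5 had a signal in ICM, such as Hoxb4 at 1.13, 0.621 and 1.22 TPM and Hoxb6 at 0.624, 0.461 and 0.746.

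The ICM levels did not fall steadily with position. Spearman's rho between position and mean ICM level was -0.17 in HoxA, 0.67 in HoxB, -0.27 in HoxC and -0.36 in HoxD, again a description across genes. Hoxc12 and Hoxc13, at the 5′ end of HoxC, averaged 0.819 and 0.941 TPM in ICM. For 11 entries, among them Hoxa6, Hoxb13, Hoxc4 and Hoxc9 as well as both for Hoxd4, the ICM had the highest mean of all 9 groups.

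**Figure D5:**
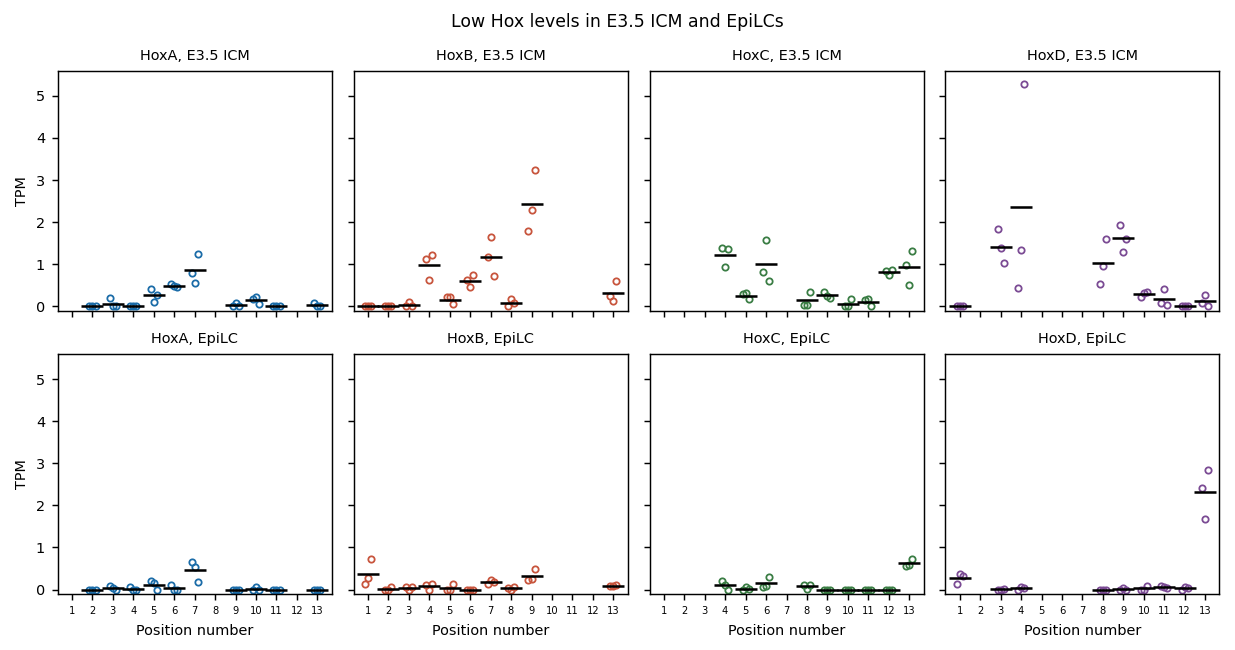
Each panel plots a cluster's genes (in HoxA all but 1) by position number in E3.5 ICM (top) or EpiLCs (bottom), in TPM on a linear axis, with circles for the 3 libraries and a bar for their mean. In ICM the signal is scattered along the clusters, over Hoxd3, Hoxd4, Hoxc4 and Hoxb4 as well as central and posterior positions. The highest value is 1 library of Hoxd4 at 5.27 TPM. In EpiLCs Hoxd13 stands alone at 1.69 to 2.85 TPM.

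To judge how low these levels are, they were set beside 1093 olfactory receptor genes, chosen after the Hox values were seen as a family that early embryos are not known to need. In each ICM library 0.640% of olfactory receptor genes were above 0.5 TPM, while 32.5% to 40% of the Hox entries were. At E5.5 it was 0.0915% of olfactory receptor genes and 0% to 2.5% of Hox entries. The ICM libraries also carried 316 to 320 TPM of the 6 extraembryonic ectoderm markers, none of them at 0. That list summed to between 539 and 552 TPM at E4.5 and between 166 and 185 at E5.5, both stages with lower Hox sums. Cdx2, which marks the trophectoderm at E3.5, read 158, 168 and 157 TPM in ICM. The part of these markers in the Hox levels was not tested.

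From E3.5 to E4.5, 1 of the 12 tested Hox genes was called lower (11.9% of all genes) and 0 were called higher (5.88% of all genes). It was Hoxb9, which fell to 0.405, 0.336 and 0 TPM (difference -1.46 ± 0.15, limma adjusted p = 2.7e-06). Hoxb4 and Hoxb6 had an adjusted p of 1.7e-05 and 1.8e-04 in limma with differences of -0.91 ± 0.12 and -0.68 ± 0.11, within the fold threshold. With no filter on low values 3 of 38 were called lower, namely Hoxb9, Hoxc4 and Hoxd3, against 8.78% of all genes. In 16 of 40 entries (40%) all E4.5 libraries lay below all ICM libraries, as in 24.4% of autosomal protein-coding genes. The isolation of the tissue also differed between these stages, and the stage and the isolation cannot be told apart.

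Hoxd13 and Hoxc13 were among the highest Hox genes of E4.5 epiblast. Of the 40 entries, Hoxd13 alone had every E4.5 library above every ICM library, as 2976 of 20774 autosomal protein-coding genes did. It read 1.53, 0.566 and 0.968 TPM against 0.0780, 0.280 and 0. Hoxc13 read 1.64, 0 and 1.48 TPM against 0.982, 0.520 and 1.32 in ICM, with groups that overlap. From E4.5 to E5.5, 0 of 12 tested Hox genes were called in limma (14.9% of all genes were called higher and 9.47% lower). An adjusted p below 0.05 was reached by 2, with differences within the fold threshold. Hoxb7, one of these, was at 0.654, 1.83 and 0 TPM and then at 0 (difference -0.74 ± 0.27, limma adjusted p = 0.028). RNA fragmentation differed between libraries up to E4.5 and those from E5.5, and the method and the stage cannot be told apart in this step. From E5.5 to E6.5, 0 of 12 were called in limma (0.715% of all genes were called higher and 0.48% lower), and 1, Hoxd1, had an unadjusted p below 0.05. The highest Hox gene at both stages was Hoxa10, a uterus and limb gene, at 0.553, 0.259 and 0.150 TPM at E5.5 and 0.379, 0.645 and 0.886 at E6.5, with groups that overlap.

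Non-coding genes of HoxB and HoxD were also found in ICM. Gm53, a long non-coding gene between Hoxb13 and Hoxb9, read 15.2, 15.5 and 15.2 TPM in ICM, 2.24, 1.19 and 4.06 at E4.5 and 0 at E5.5. The hairpin gene Mir196a-1, which follows it, read 2.42, 8.02 and 4.96 TPM in ICM and was listed at 0 at E4.5. In EpiLCs they averaged 2.89 and 1.50 TPM. Both were called lower in the fit with all gene classes, 2 of 10 tested non-coding genes of the clusters, where 12% of all genes were called lower (limma adjusted p of 3.0e-06 and 6.3e-06). Mir10b, inside Hoxd4, read 2.58, 4.26 and 1.65 TPM in ICM and 0 in the other 24 libraries. The microRNAs of the clusters repress Hox messages, and the 2 families are shown because both have a member with a signal in ICM. Capitals mark the seed (bases 2 to 8), which is shared within a family (RefSeq, GRCm38.p6).
miR-10a-5p: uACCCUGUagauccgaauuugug
miR-10b-5p: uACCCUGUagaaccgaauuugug
miR-196a-5p: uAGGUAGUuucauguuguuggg
miR-196b-5p: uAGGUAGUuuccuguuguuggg

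These libraries were made from long RNA, so a value for a hairpin gene is a count of reads over that stretch and not a level of the mature microRNA. Mir196b and Mir196a-2 were listed at 0 in all libraries, and Mir10a averaged no more than 0.0806 TPM in any group.

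In culture the clusters were nearly silent. The 40 entries summed to between 0.413 and 1.19 TPM in 3D EpiSCs derived from stem cells, between 0.656 and 1.01 in those derived from embryos, between 0.844 and 1.38 in 2D EpiSCs and between 5.43 and 6.99 in EpiLCs. The embryo sum at E5.5 and E6.5 was between 0.976 and 3.06 TPM, but these libraries were made with another kit (total RNA against poly-A selection), so the 2 sets are given side by side and were not tested. No Hox gene passed the filter in the 12 culture libraries, so the main fit gives no test. Hoxb1 was listed at 0 in all 9 EpiSC libraries.

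Hoxd13 was the one Hox gene called between EpiLCs and the EpiSCs, and only with no filter on low values. Hoxd13, a gene of digits and the genital tubercle, read 2.41, 1.69 and 2.85 TPM in EpiLCs. It read 0.693, 0.375 and 0.819 TPM in 2D EpiSCs, 0.723, 0.739 and 0.194 in stem-cell-derived 3D EpiSCs and 0.594, 0.341 and 0.315 in embryo-derived 3D EpiSCs, with no overlap. It was the only entry above 1 TPM in any culture library. With no filter on low values it was the single Hox gene of 35 called in each comparison with EpiLCs. The difference was -1.02 ± 0.18 in 2D EpiSCs (limma adjusted p = 0.0013, where 4.37% of all genes were called lower), -1.10 ± 0.18 in stem-cell-derived 3D EpiSCs (limma adjusted p = 0.0012, 5.96% called lower) and -1.22 ± 0.18 in embryo-derived 3D EpiSCs (limma adjusted p = 4.7e-04, 6.92% called lower), all on the log2 scale. These 3 comparisons share the EpiLC libraries. By an adjusted p below 0.05 alone in limma, 9, 10 and 9 of the 35 were lower than in EpiLCs, in the same order, and 0 higher. All but Hoxd13 stayed within the fold threshold. The share of all genes at that p was not computed, so these counts cannot be set against a general rate. With most entries at or near the floor in EpiSCs, few could have been higher there. Among the 3 kinds of EpiSC, 0 Hox genes were called with no filter in limma, and 0 had an unadjusted p below 0.05. No Hox entry reached 1 TPM in any EpiSC library, so no difference among them could pass the fold threshold. The absence of calls there says nothing beyond the levels.

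Besides Hoxd13, a few members passed 0.5 TPM in at least 1 EpiLC library. Hoxc13 read 0.553, 0.585 and 0.718 TPM, Hoxa7 0.656, 0.546 and 0.172, and Hoxb1 0.123, 0.272 and 0.720. In 11 of 40 entries (27.5%) every EpiLC library lay above every 2D EpiSC library, where 18.3% of autosomal protein-coding genes did, and the same count was reached against stem-cell-derived 3D EpiSCs (21.1% of genes). Against embryo-derived 3D EpiSCs it was 10 entries (25%), with 22.3% of genes. These shares lie near those of all genes. The opposite, with every EpiLC library below, held for 0 of 40 entries in each comparison. Among the 20774 genes it held for 6399 against 2D, 3443 against stem-cell-derived 3D and 5139 against embryo-derived 3D EpiSCs. EpiLC libraries had between 24300 and 24438 genes above 0 and the other culture libraries between 22215 and 23333. Between 0.274% and 0.457% of olfactory receptor genes passed 0.5 TPM in EpiLCs, against between 0.0915% and 0.183% in the EpiSC libraries.

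A transcript near HoxA was far higher in EpiLCs than any Hox gene. Halr1, a long non-coding gene on the 3′ side of the cluster, read 10.2, 25.2 and 20.5 TPM in EpiLCs and did not pass 0.655 TPM in any EpiSC library. It was named after its values were seen. In the fit with all gene classes the difference between 2D EpiSCs and EpiLCs was -4.02 ± 0.27 (limma adjusted p = 4.8e-07). At E7.5 it read 5.65, 5.73 and 5.17 TPM and it was listed at 0 in the 12 earlier embryo libraries. Skap2, a protein-coding gene farther out on that side, read a mean of 26.0 TPM in EpiLCs and 10.5 in 2D EpiSCs (difference -1.20 ± 0.21, limma adjusted p = 4.2e-04).

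The Cdx genes and Aldh1a2 were low in all cultures, while the lists of upstream signals and of partner genes were not silent. The 13 upstream signals and trunk genes summed to between 205 and 442 TPM in culture. At E6.5 they summed to between 340 and 445 and at E7.5 to between 557 and 561. The 9 partner genes summed to between 102 and 221 TPM in culture, between 114 and 136 at E6.5 and between 351 and 392 at E7.5. The 6 caudal and ParaHox genes summed to between 0 and 0.983 TPM in culture and between 4.89 and 7.70 at E6.5. These sums are set side by side from libraries of different kits and were not tested. Cdx1 did not average above 0.134 TPM in any culture group, Cdx2 0.169, Cdx4 0.369 and Aldh1a2 0.585, against 123, 56.7, 9.08 and 158 at E7.5 in libraries of the other kit. Meis1 and Meis2 averaged at most 0.164 and 0.983 TPM in culture. Of 7 tested partner genes, 3 were called higher in 2D EpiSCs than in EpiLCs and 0 lower, where 15.2% and 5.14% of all genes were. T read 37.5, 34.8 and 24.1 TPM in 2D EpiSCs, 12.3, 14.1 and 23.0 in stem-cell-derived and 54.6, 21.4 and 22.0 in embryo-derived 3D EpiSCs, and 1.46, 0.554 and 1.28 in EpiLCs. Cyp26a1 averaged 119 TPM in 2D EpiSCs and 0.0773 in EpiLCs.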

How the data were processed

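Bulk RNA-seq values of 27 of the series' 35 samples were used. The other 8, single-cell and methylation samples, were not analysed here. The deposited TPM table was made by the authors with cutadapt 2.4, STAR (mm10) and StringTie on GENCODE genes, and each library sums to 1000000 TPM. The strand option of the last step is not given in the sources used here. TPM keeps no depth, so no counting error is given. Embryo libraries came from total RNA and culture libraries from poly-A RNA, so they were fitted apart.

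Lines sharing an identifier (12 identifiers) were summed, and empty cells (on 56 lines) were read as 0. Autosomal protein-coding genes above 2 TPM in 3 or more libraries of a fit were tested with limma 3.58.1 (R 4.3.3) on log2(TPM + 1), for 15 embryo or 12 culture libraries. A call needed a Benjamini-Hochberg adjusted p below 0.05 over all genes tested and a log2 difference above 1 in size. The script was tested on simulated data. Library values are given for each Hox gene called in a comparison, or the 12 largest changes where more were called, and other members by level or range. Halr1, the olfactory receptor genes and the neighbours of the clusters named in the text were picked after their values were seen. The Hox genes and the lists were chosen with earlier results of these data known. Replicate libraries are separate samples by label, and p-values measure the spread between them. Alternatives were a pseudocount of 0.1, no filter, rescaling by median ratios, all gene classes, a replicate block, a fit of the 2 compared groups alone, a variance trend, averaging close culture replicates and leaving out each library. Some genes of the lists are not reported here, though counts and sums include them.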

Additional observations from a re-analysis of the deposited data

How the results depend on the processing

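The 12 calls at E7.5 and that of Hoxb9 at E4.5 kept direction and call in all 169 values over the alternatives. Their sizes grew with a pseudocount of 0.1, at E7.5 to 6.95 for Hoxb1, 6.60 for Hoxb2, 6.34 for Hoxb3, 6.16 for Hoxb4, 5.92 for Hoxb6, 4.10 for Hoxb9 and 3.45 for Hoxd1, and for Hoxb9 at E4.5 to -3.14. Counts stayed within 1.5 times in 259 of 272 cases. From E3.5 to E4.5, 3 Hox genes were called lower with a pseudocount of 0.1 (Hoxb9, Hoxb6, Hoxb4), 3 with no filter on low values, and 1 to 2 when a library was left out, Hoxb4 being added without E3.5 ICM replicate 2. From E4.5 to E5.5, a pseudocount of 0.1 gave 1 called higher (Hoxd1) and 2 lower (Hoxb7 among them), rescaling gave 1 lower, and leaving out a library gave 0 to 1 lower (1 without any one of the E4.5 epiblast replicates, Hoxb7 without replicate 3). From E5.5 to E6.5, a pseudocount of 0.1 gave 1 higher (Hoxd1). With no filter, 1 (Hoxd13) was called lower in each EpiSC kind than in EpiLCs. The cause of these changes was not tested, beyond a smaller pseudocount enlarging differences of low values and no filter admitting more genes.

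Replicate numbers did not pair the libraries. Same-numbered libraries had deviations with a mean correlation of -0.017 (embryo) and -0.030 (culture), and 4 of 15 and 3 of 12 correlated best with their own number. With the replicate number as a block, 12 Hox genes were called higher at E7.5 and 1 lower at E4.5.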

Other observations

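Of the 17 tested protein-coding genes within 300 kb of the clusters, 3 were called lower and 0 higher from E3.5 ICM to E4.5 epiblast, where 11.9% and 5.88% of all tested genes were. Calcoco2, an autophagy receptor gene, went from 678, 701 and 607 TPM to 37.4, 38.1 and 37.1 (difference -4.10 ± 0.10 on the log2 scale, limma adjusted p = 1.7e-12). Ttll6, a tubulin-modifying enzyme gene, went from a mean of 8.00 TPM to 0.526 and Nfe2, a blood transcription factor gene, from 3.40 to 0.234. Both were at or below 1.63 TPM in every culture library.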
